A study of Mus musculus with 18 samples.

Results

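The mIMCD-3 line is an immortalized mouse epithelial line from the inner medullary collecting duct, the last segment of the renal tubule, and is used as a model of its principal cells. Expression in these cells without any drug was read from the 6 vehicle arrays among the 18 arrays of the study, 3 from each of 2 experiments. All 6 cultures received 0.1% ethanol and 0.1% DMSO for 24 h, with no AGN193109, no DEAB and no added all-trans retinoic acid (tRA). In the first experiment the other arrays were of cells given 1 μM AGN193109, an antagonist of all retinoic acid receptors, alone or with 0.2 μM tRA. In the second they were of cells given 25 μM DEAB, an inhibitor of retinaldehyde dehydrogenases, alone or with 0.01 μM tRA. Every group held 3 arrays, each from an independent culture experiment. All RNA came from a single cell line grown in medium with fetal calf serum, so the values describe that line and no tissue.

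Principal cells reabsorb water through aquaporin 2 and sodium through the epithelial sodium channel, under the control of vasopressin and aldosterone. They descend from the ureteric bud, whose branching in the embryo needs vitamin A. In cells that make tRA, retinol is oxidized to retinaldehyde and then to tRA, tRA binds receptors of the RAR family paired with RXRs, and enzymes of the CYP26 family break it down.

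Levels were log2 values of transcript clusters, the array's units of 1 transcript or a few. The 2 experiments were normalized apart, so their arrays were set side by side by percentile, the share of the 23410 annotated clusters that are dimmer within an experiment. Probes differ in how strongly they bind, so a percentile orders brightness and not copies of RNA. Background was drawn at 2 heights on each array. The line was the 95th percentile of 1035 clusters of olfactory receptors, genes not known to be used by kidney epithelium, and lay between log2 6.59 and 6.82. The upper line was the 90th percentile of 35 genes of other organs, such as milk, lens, sperm and pituitary genes, and lay between log2 7.34 and 7.60. The line stood at percentile 32.8 to 34.8 of the array and the upper line at 44.0 to 45.3. A gene was called above a line only if it was above it on all 6 arrays, at background if it was above the line on none, and bright if its percentile was 90 or more in both experiments. Above the line were 14660 annotated clusters (62.6%), above both lines 12349 (52.8%), at background 6992 (29.9%) and bright 2163 (9.24%). The lines are not strict: 9 of the 35 genes of other organs were above the line themselves and 3 of them, Apoa2, Lhb and Prm2, above both.

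**Figure D1:**
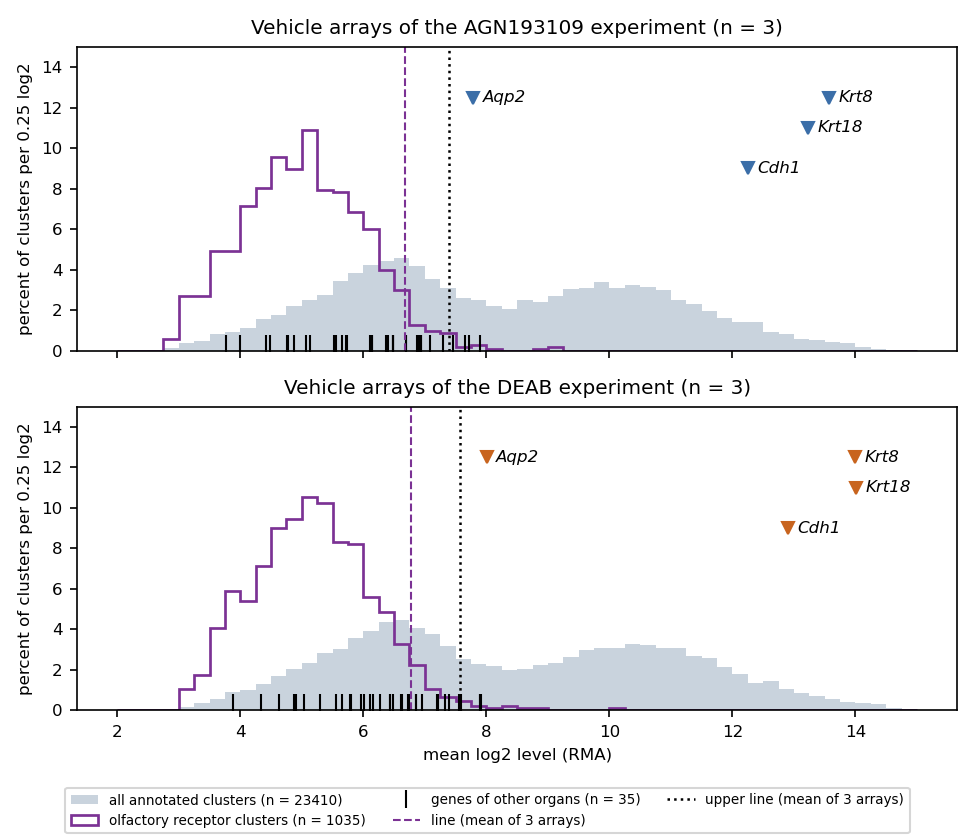
Distribution of mean log2 levels (x axis) of all annotated clusters and of olfactory receptor clusters, as percent of clusters per bin of 0.25 log2 (y axis), in the vehicle arrays of each experiment (n = 3). Ticks are genes of other organs, vertical lines the mean height of both background lines, and triangles, placed at arbitrary heights, show Krt8, Krt18, Cdh1 and Aqp2. The first 3 lie far to the right of both lines in both panels, whereas Aqp2 lies 0.39 and 0.44 log2 units above the upper line.

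Krt8, Krt18 and Cdh1 were bright, and none of the 44 measured genes in the list of epithelial keratins, junctions and regulators was at background. Krt8, the type II keratin of simple epithelia, read 13.67, 13.58 and 13.46 in the vehicle arrays of the AGN193109 experiment, and 14.14, 14.02 and 13.83 in those of the second. Krt18, its partner keratin, read 13.19, 13.25 and 13.25, and 14.07, 14.03 and 13.92. Cdh1, which encodes E-cadherin, the adhesion molecule of epithelial junctions, read 12.28, 12.30 and 12.18, and 12.88, 12.97 and 12.90. These 3 markers stood at percentiles 99.1 and 99.2, 98.4 and 99.2, and 94.7 and 96.4, in the order AGN193109 and DEAB experiment, which is used for every pair of percentiles here. In GRCm38, Krt8 lies on chromosome 15 at 101996711 to 102004342, Krt18 on chromosome 15 at 102028216 to 102032026 and Cdh1 on chromosome 8 at 106603350 to 106670247.

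Of the 44 measured epithelial genes, 44 were above the line, 43 above both lines and 18 bright. Besides the 3 markers, the bright members included Krt7 (97.1 and 97.4) and Krt19 (90.9 and 92.6), further simple-epithelial keratins, and Jup (96.5 and 97.1), Ctnnb1 (96.3 and 96.8) and Ctnna1 (94.7 and 95.2), which link cadherins to the cytoskeleton. The membrane protease St14 (95.8 and 96.3) and its inhibitor Spint1 (96.9 and 97.1) were bright too. Epcam, an epithelial adhesion molecule, stood at 86.9 and 93.0. The regulators of epithelial splicing Esrp1 and Esrp2 stood at 93.5 and 91.3, and at 84.3 and 81.4. Cdh16, the kidney-specific cadherin, stood at 78.7 and 82.2. The dimmest member was Grhl1, a transcription factor of surface epithelia, at 44.7 and 46.3. The list's median percentile was 84.6 and 87.8.

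The claudins, which set what passes a tight junction, were split. Cldn4 read 13.69, 13.79 and 13.66, and 13.93, 13.89 and 13.88. It was bright, as were Cldn1 (96.5 and 95.2), Cldn3 (93.4 and 94.0) and Cldn7 (92.4 and 92.1), and Cldn12 stood at 92.8 and 89.7. At background were 5 of 20, among them Cldn2 (13.2 and 13.1) and Cldn10 (13.6 and 16.4), claudins of leaky tubule segments, and Cldn16 (20.2 and 24.4), that of the thick ascending limb. Cldn8, a claudin of the distal nephron and collecting duct, read 8.24, 6.51 and 7.64, and 7.48, 8.91 and 9.40, so it ranged from below the line to well above the upper line between cultures with the same vehicle.

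**Figure D2:**
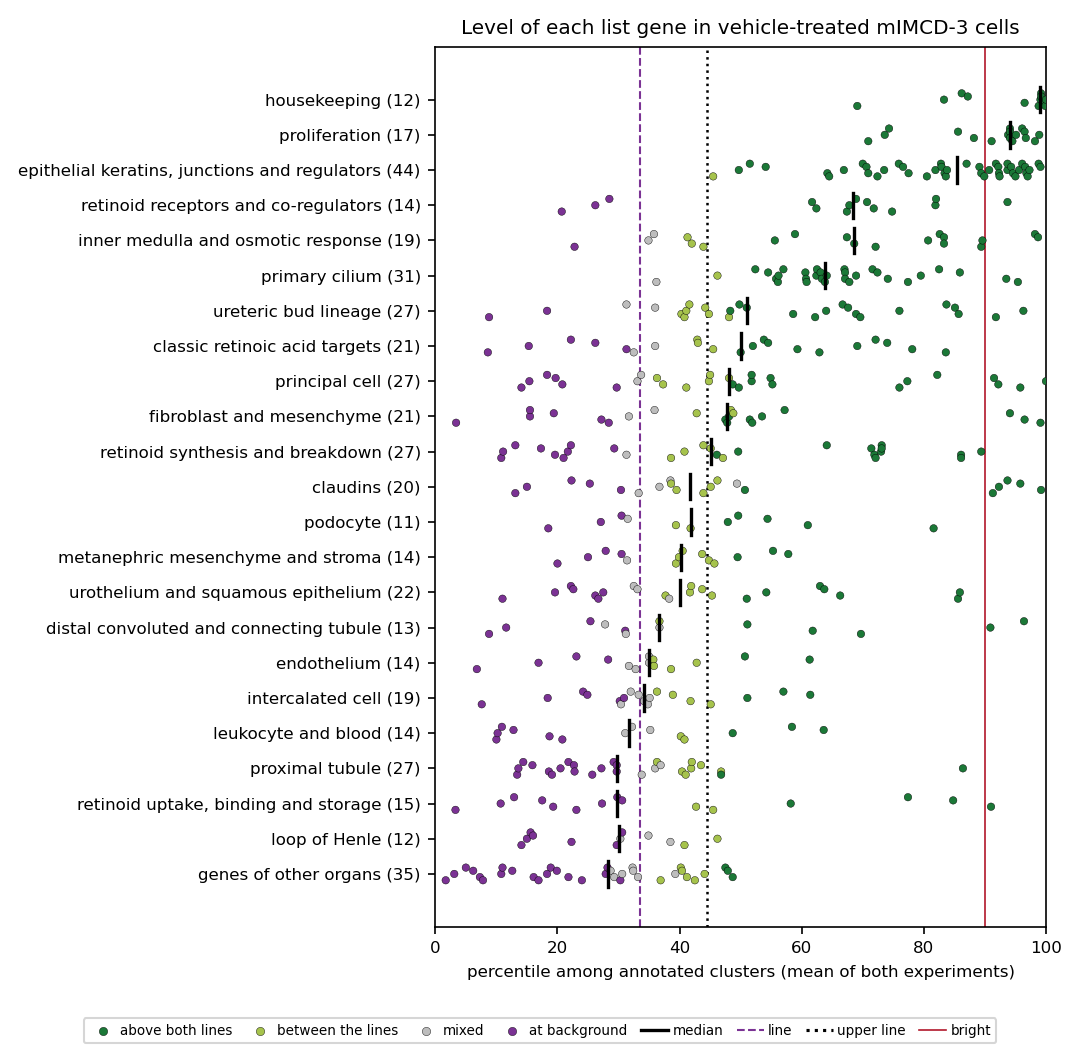
Percentile of every measured list gene (x axis, mean of both experiments) in each list (y axis, number of measured genes in brackets). Colours give the position against the background lines, black bars the list medians, and vertical lines the mean height of both background lines and the bright threshold of 90. Epithelial, proliferation and housekeeping genes crowd at the right, and loop of Henle genes at the left.

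Principal cell genes showed a mixed picture, and the best known ones were dim. Aqp2, the vasopressin-regulated water channel, read 7.75, 7.56 and 8.04 in the first experiment and 7.97, 8.04 and 8.01 in the second, a mean of 7.79 ± 0.24 and 8.01 ± 0.03 (SD, n = 3 each). It was above both lines on all 6 arrays. Its percentile was 48.9 and 48.5, which was beside Apoa2 of liver (49.9 and 47.6) and Lhb of pituitary (48.2 and 47.5). In RNA of a whole culture, fewer cells with a transcript and less of it per cell cannot be told apart. Its 1 cluster on the array lies in a gene on chromosome 15 at 99579056 to 99584545 (GRCm38). Aqp3, the water channel of the basolateral membrane, read 7.08, 6.67 and 7.01, and 6.95, 7.06 and 6.99, between the lines. Avpr2, the vasopressin receptor, was above the line on 3 of 6 arrays, at percentiles 30.0 and 36.1.

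Of the 3 subunits of the epithelial sodium channel, Scnn1a was between the lines (42.6 and 47.4), while Scnn1b (20.3 and 16.4) and Scnn1g (15.3 and 15.5) were at background. Kcnj1, the potassium secretory channel (13.6 and 14.5), Aqp4 (20.9 and 18.4), Stc1 (18.6 and 23.0) and the transcription factor Elf5 (28.4 and 31.1) were at background as well. The mineralocorticoid pathway was dim to middling: Hsd11b2, which shields the mineralocorticoid receptor from glucocorticoids, stood at 52.8 and 57.0, Sgk1, its kinase target, at 48.8 and 50.6, and the receptor Nr3c2 at 49.8 and 46.3. Brighter members included Atp1b1, the beta subunit of the sodium pump (95.9 and 95.8), Npnt, a matrix ligand for integrins (92.5 and 91.9), Nedd4l, a ubiquitin ligase that removes the sodium channel (90.7 and 92.3), and Tfcp2l1, a transcription factor of the collecting duct (76.2 and 75.8). Prkar2a and Adcy6, of the cAMP signal that vasopressin raises, were above both lines too. Prkar2a read 10.56, 10.56 and 10.46, and 11.41, 11.39 and 11.38. Adcy6 read 10.45, 10.23 and 10.00, and 10.83, 11.00 and 10.85. In all, 19 of 27 were above the line, 13 above both, 6 at background and 4 bright, and the list medians were 48.8 and 47.4.

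The fourth bright member, Kcnma1, which encodes the large calcium-activated potassium channel, rested on a doubtful cluster. Its brighter cluster stood at 100.0 and 100.0, but in the order of cluster identifiers none of its 20 neighbours lay on the gene's own chromosome. The gene's other cluster, with all 20 neighbours on that chromosome, stood at 15.0 and 11.7, at background. Over the array, 576 of 21698 clusters with 1 symbol (2.65%) were out of place in this way, but 58 of the 101 in the top 1 percent of both experiments were (57.4%). Of the list genes 7 were read from such a cluster. For the other 6, Etv5, Fabp5, Sfn, Ppia, Ywhaz and Pgk1, every cluster of the gene was above the line.

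**Figure D3:**
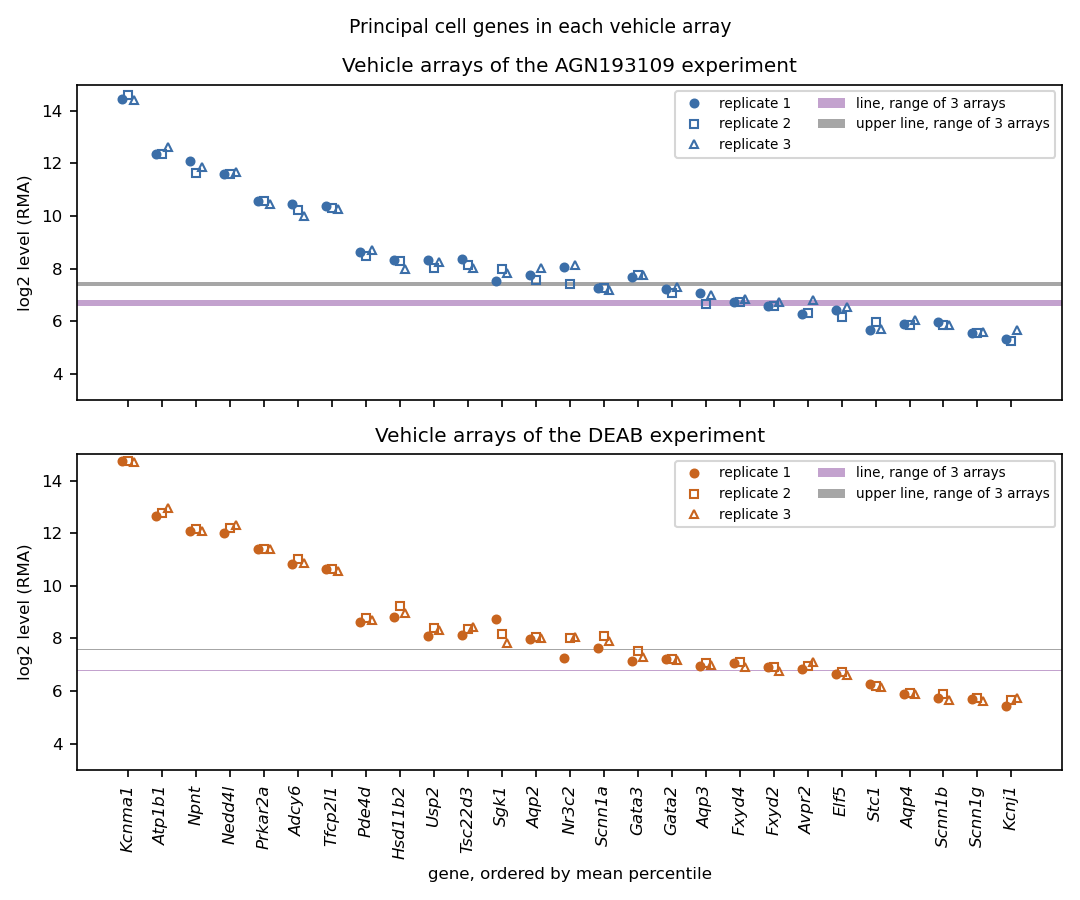
Log2 level (y axis) of each measured principal cell gene (x axis) in every vehicle array, with 1 panel per experiment and 1 symbol per replicate. Shaded bands give the range of both background lines over the 3 arrays. Aqp2 lies just above the upper line in both panels, and Scnn1b, Scnn1g and Kcnj1 lie below the lower line on every array; the point at the top left is the Kcnma1 cluster that is out of place.

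Genes by which inner medullary cells live with high salt and urea had higher percentiles than the principal cell list, with medians of 67.3 and 70.0. Nfat5, the transcription factor of the osmotic response, stood at 90.1 and 89.0, the taurine carrier Slc6a6 at 88.7 and 90.1, and the inositol carrier Slc5a3 at 67.2 and 70.0. The glucose carrier Slc2a1 (98.7 and 98.6) and the amino acid carrier Slc38a2 (98.4 and 97.9) were bright. Slc14a2, the urea transporter of the inner medullary duct, was between the lines, with 7.22, 7.29 and 8.35, and 6.94, 7.17 and 6.90, and only replicate 3 of the AGN193109 experiment was above the upper line. Slc6a12, the betaine carrier, stood at 46.5 and 36.0. Above the line were 16 of 19 and above both 13.

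Genes of the ureteric bud lineage were mostly above the line, but their median level was near the middle of the array. Pax8, a transcription factor of the nephric lineage, read 12.48, 12.44 and 12.66, and 12.84, 12.93 and 12.86 (percentiles 96.2 and 96.3). Its relative Pax2 stood at 84.6 and 82.9, Sox9 at 87.8 and 82.4, Wnt7b, a ligand of the bud that patterns the medulla, at 85.1 and 86.4, Hoxb7 at 68.7 and 70.6 and Emx2 at 68.8 and 69.0. Spry1, an inhibitor of receptor kinases, was bright (92.0 and 91.7). Ret, the receptor that drives bud branching, was near the line, with 6.71, 6.78 and 6.78, and 6.98, 7.01 and 7.01, and was above it on 5 of 6 arrays. Its ligand-binding partner Gfra1 stood at 50.7 and 45.4 and Wnt11 at 40.9 and 42.4, between the lines, and Tfap2b (18.4 and 18.1) was at background. Of 27 genes, 23 were above the line (85.2%, against 62.6% of all annotated clusters) and 16 above both (59.3% against 52.8%). Bright were 7.41%, against 9.24% of all, and the list medians were 51.3 and 50.7. In the list of metanephric mesenchyme and stroma, the tissues next to the bud, 9 of 14 were above the line but 3 above both, led by Sall1 (59.2 and 56.3), Eya1 (54.7 and 56.0) and Foxd1 (50.7 and 48.4). Six2, the factor of nephron progenitors, was between the lines (39.8 and 40.1).

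Genes of the other nephron segments were mostly at or near background. Of 27 proximal tubule genes, 15 were at background and 2 above both lines, Gatm, an enzyme of creatine synthesis (87.4 and 85.4), and Slc22a12, the urate exchanger (48.1 and 45.6). Among the defining members of that list, Slc34a1, the phosphate carrier (43.3 and 40.7), Lrp2, which encodes megalin (35.1 and 37.6), Cubn (45.9 and 47.8) and Slc5a2, the glucose carrier (43.5 and 43.5), were between the lines. Of 12 loop of Henle genes none was above both lines, and Slc12a1, the sodium-potassium-chloride carrier, read 5.89, 5.86 and 5.89, and 5.39, 5.43 and 5.36, while Umod, which encodes uromodulin, stood at 25.2 and 35.4. Of 13 distal convoluted and connecting tubule genes, 6 were above the line, 5 above both and 4 at background. Slc12a3, the thiazide-sensitive carrier, was between the lines (36.1 and 37.3), and Calb1 (9.8 and 7.8) and Pvalb (26.0 and 24.8) were at background. Trpm6, a magnesium channel, was higher, at 66.9 and 72.4. The kinase Wnk1 (96.6 and 96.1) and the calcium pump Atp2b1 (90.7 and 91.1), both also used outside this segment, were bright. Wnk4 and Cnnm2 were above both lines too.

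Of 19 intercalated cell genes, those of the cells between principal cells that secrete acid or bicarbonate, 3 were above both lines: Car2, a cytosolic carbonic anhydrase (62.0 and 60.7), Car12 (57.7 and 56.4) and Hmx2 (52.5 and 49.6). The defining members were lower. Foxi1, the factor that specifies these cells, stood at 33.9 and 26.9, the proton pump subunit Atp6v1b1 at 35.8 and 30.7, the anion exchanger Slc4a1 at a mean of 41.8 over both experiments and pendrin, Slc26a4, at 19.0 and 17.8.

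Markers of cell types outside the tubule were checked in the same way. Among podocyte genes 5 of 11 were above both lines, with Podxl at 79.5 and 83.7 but Nphs1, which encodes nephrin, between the lines (44.7 and 38.9). Of 14 endothelial genes 6 were above the line and 2 of these above both. The 2 were Egfl7 (9.16, 8.90 and 9.13, and 9.30, 9.63 and 9.50) and Flt1 (7.88, 8.14 and 7.71, and 8.54, 8.32 and 8.13). Vwf, Esam, Cldn5 and Robo4 were between the lines. At background were 4, among them Pecam1, Kdr and Tek. Of 14 leukocyte and blood genes 3 were above both, Cd68, Cd14 and Csf1r, the receptor of macrophage growth factor. Csf1r stood at 60.9 and 66.4, while Ptprc, the pan-leukocyte marker (21.1 and 20.5), Itgam, Lyz2 and Adgre1 were at background. Of 21 fibroblast and mesenchyme genes 13 were above the line, 10 above both and 6 at background. Bright were 3 of them: Fn1, fibronectin (99.1 and 99.2), Vim, vimentin (97.1 and 95.9), and Cdh2, N-cadherin (94.7 and 93.5). N-cadherin and E-cadherin thus stood at like percentiles in the same cultures. The fibroblast receptors Pdgfra and Pdgfrb and the matrix genes Dcn, Lum and Postn were at background, Snai2 too, while Twist2 (58.3 and 56.0), Zeb2 (53.8 and 49.3) and Snai1 (53.4 and 53.6), transcription factors of mesenchyme, and the collagens Col1a1 (52.9 and 51.0), Col3a1 (49.0 and 47.3) and Col1a2 (48.9 and 46.1) were above both lines, as was S100a4 (47.8 and 47.9). Zeb1 was above the line on all 6 arrays and above the upper line on 5.

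Urothelial and squamous genes were read because the bladder and ureter lining adjoins the duct. Of 22, 7 were above both lines. Sprr1a, a cornified envelope protein, was the most uneven of them between experiments, with 11.09, 11.69 and 12.58, and 11.16, 10.84 and 10.68 (92.0 and 79.2). Upk3b stood at 69.1 and 63.6 and Upk1a at 54.7 and 53.6, both plaque proteins of the urothelium, whereas Krt5 (43.0 and 44.4) and Krt14 (40.5 and 42.9), keratins of basal cells, were between the lines and Krt6a and Krt1 at background. Of 31 genes of the primary cilium, the sensory antenna of tubule cells, 30 were above the line and 29 above both, among them Pkhd1 (77.0 and 82.1), Pkd1 (64.3 and 62.3) and Ift88 (55.9 and 55.7). All 17 measured genes of the proliferation list were above both lines and 11 were bright, with Pcna at a mean of 98.9 over both experiments, Top2a at 94.1 and 94.2 and Mki67 at 93.3 and 94.3. The list also holds Cdkn2a and Cdkn2b, which encode inhibitors of the cell cycle. Cdkn2a read 9.99, 9.67 and 9.75, and 10.16, 10.50 and 10.31. Cdkn2b read 10.12, 10.03 and 9.99, and 10.64, 10.64 and 10.49.

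The retinoid pathway was present in part. Rarg, Rara and Rxra, receptors for tRA and their partner, were well above background. Rara read 10.01, 9.97 and 9.94, and 10.19, 10.39 and 10.27 (72.1 and 71.5). Rarg read 10.48, 10.35 and 10.45, and 10.24, 10.38 and 10.31 (77.8 and 71.9). Rxra stood at 68.6 and 67.0 and Rxrb at 70.6 and 64.2. Rarb read 6.17, 6.12 and 6.42, and 6.34, 6.43 and 6.43, at background on all 6 arrays, and so was Rxrg (19.7 and 21.7). Med1, a mediator subunit that nuclear receptors bind, was bright (93.9 and 93.6), the coactivators Ncoa3, Ncoa2 and Ncoa1 stood at 82.9 and 81.0, 71.5 and 69.8, and 70.3 and 67.5, the corepressor Nrip1 at 62.9 and 60.6 and the nuclear receptors Ppard and Nr2f2 at 81.4 and 82.5, and at 62.0 and 62.7. Nr2f1 was at background (32.4 and 24.7). Of 14 measured receptor and co-regulator genes, 11 were above both lines and 3 at background.

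Fewer genes of retinoid uptake, binding and storage were detected, with 4 of 15 above both lines and 9 at background. Stra6, the receptor that takes up retinol from its carrier, read 8.60, 8.53 and 9.61, and 8.75, 9.19 and 9.14. The lipoprotein receptor Scarb1 stood at 92.2 and 89.8, Fabp5, a fatty acid binding protein that also carries tRA, at 81.4 and 88.3, and Dgat1, which can esterify retinol, at 76.2 and 78.7. The cellular tRA binding proteins Crabp2 (45.6 and 45.4) and Crabp1 (45.2 and 40.1) were between the lines. Lrat, the main retinol esterifying enzyme (31.7 and 29.6), Rbp4, the plasma carrier (20.1 and 14.9), and Rbp7, Rbp2, Rbp3, Rlbp1, Ttr, Bco2 and Cd36 were at background.

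Each step of tRA synthesis had a gene above both lines. For the oxidation of retinol, Rdh10 read 11.04, 10.97 and 11.46, and 11.50, 11.45 and 11.33 (86.5 and 85.6). Adh5 (89.8 and 89.1) was similar, followed by Adh7 (73.0 and 73.1). Rdh11 (85.4 and 86.8) and Rdh13 (62.8 and 65.4) were above both lines too, but the direction in which they work here was not tested. For the oxidation of retinaldehyde, Aldh1a2 read 10.02, 9.70 and 10.21, and 10.21, 10.18 and 10.25 (72.2 and 70.6). Aldh1a3 read 7.60, 7.39 and 7.56, and 7.79, 7.68 and 7.78, a little above the upper line. Aldh1a1 was above the line on 3 of 6 arrays (29.0 and 33.5), and Aldh1a7 and Aldh8a1 were at background. The retinaldehyde reductases Dhrs4 (70.2 and 76.0), Akr1b8 (72.6 and 73.4), Akr1b10 (70.2 and 73.6) and Dhrs3 (74.7 and 69.4), which turn retinaldehyde back to retinol, were above both lines. Of the tRA-degrading enzymes, Cyp26b1 (43.8 and 44.0) and Cyp26c1 (39.8 and 37.4) were between the lines. Cyp26a1 read 6.08, 5.95 and 6.06, and 6.06, 6.25 and 6.08, at background. Dhrs9 (51.0 and 48.3) was above both lines, Rdh5, Rdh14 and Rdh1 were between them, and Adh1, Adh4, Rdh7, Rdh9, Rdh12 and Rdh16 were at background. Over the 27 genes, 12 were above both lines and 9 at background. Over the 3 retinoid lists together, 27 of 56 genes were above both lines, 21 at background and 1 bright.

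**Figure D4:**
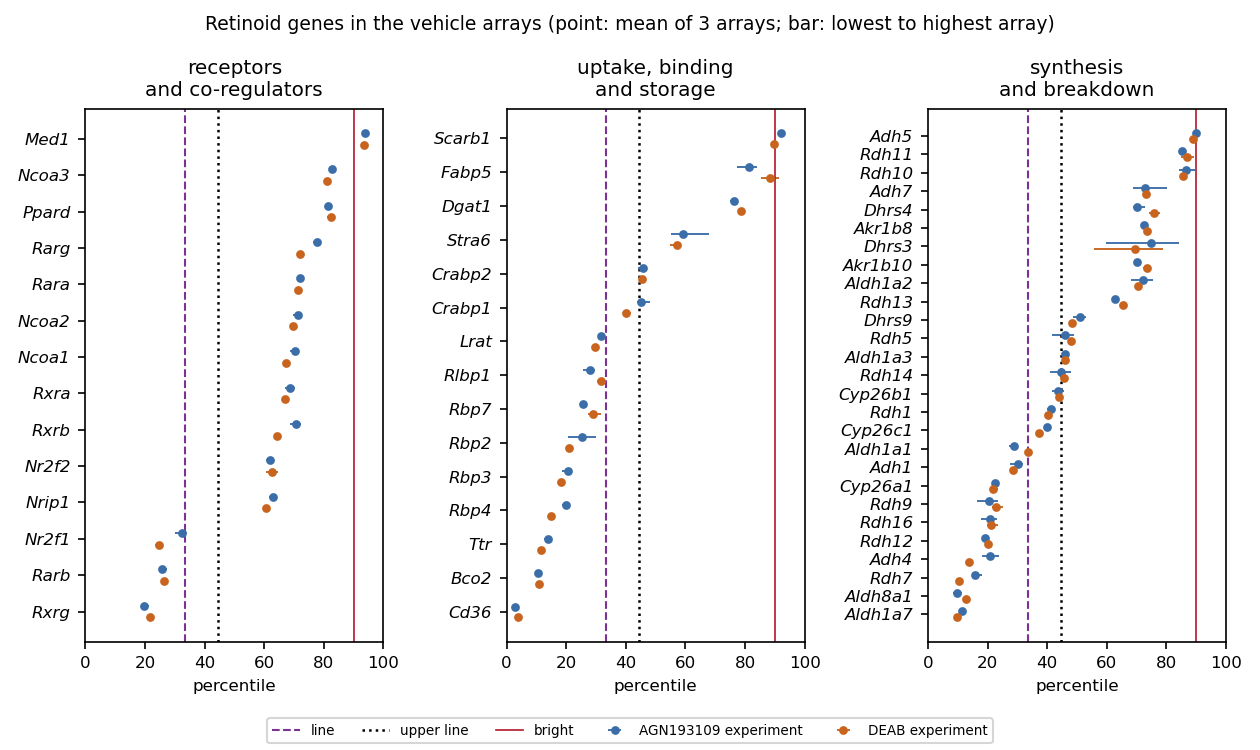
Percentile (x axis) of each measured retinoid gene (y axis) in the vehicle arrays of both experiments, with points at the mean of 3 arrays and bars from the lowest to the highest array. Vertical lines give the mean height of both background lines and the bright threshold of 90. Rarb, Cyp26a1 and Rbp4 lie left of both lines, Rdh10 and Aldh1a2 right of both, and Dhrs3 has the widest bars.

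Classic targets of tRA did not share a level. Rarb and Cyp26a1, the textbook genes with a DR5 element, were at background, as were Stra8 (5.5 and 11.7) and Rarres1 (16.9 and 13.7). Bhlhe40 (82.7 and 84.5), Hoxb2 (76.9 and 79.2), Meis2 (77.4 and 70.6), Dhrs3 and Tgm2 (68.2 and 69.9) were well above both lines. Of 21 measured targets, 11 were above both lines and 5 at background. A DR5 is a direct repeat of a 6-base receptor half-site with 5 bases between the copies, the form of retinoic acid response element that RAR and RXR pairs are best known to bind. Each copy had to read AGGTCA or AGTTCA or GGGTCA or GGTTCA, with any 5 bases between. On either strand it was found in the RefSeq promoters (250 bases before to 50 after a start) of 11 of the 15563 genes that had a promoter listed and a cluster with 1 symbol (0.0707%). Of all 32851 listed promoters, 32 held it (0.0974%). Among list genes it was found in Rarb and Cyp26a1 only, out of 339 with a promoter.

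The stretches around these elements are printed because genes with the same element stood far apart in percentile. Ppbp, Blvrb and Prss27, outside the lists, named after their values were seen, carry a DR5 and were above both lines, and they are set beside Rarb and Cyp26a1. Letters run 5′ to 3′ on the gene's strand (GRCm38.p6), and capitals mark the DR5, which may lie on either strand.
Ppbp: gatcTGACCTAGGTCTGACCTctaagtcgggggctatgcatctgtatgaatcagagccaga
Blvrb: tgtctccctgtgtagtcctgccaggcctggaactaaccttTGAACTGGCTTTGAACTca
Prss27: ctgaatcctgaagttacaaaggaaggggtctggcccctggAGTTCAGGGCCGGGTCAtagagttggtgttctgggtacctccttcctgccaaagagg
Rarb: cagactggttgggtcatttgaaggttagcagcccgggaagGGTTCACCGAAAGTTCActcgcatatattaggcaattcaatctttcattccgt
Cyp26a1: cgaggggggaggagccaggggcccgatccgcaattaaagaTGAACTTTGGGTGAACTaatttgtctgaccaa

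The stretch of Ppbp is chr5:90768268-90768328 on the plus strand, that of Blvrb chr7:27452359-27452417 (plus), that of Prss27 chr17:24038054-24038150 (plus), that of Rarb chr14:16575477-16575569 (minus) and that of Cyp26a1 chr19:37697736-37697807 (plus). All end before the start of transcription. Counted from the start, the element of Rarb begins at -53, that of Cyp26a1 at -32, that of Blvrb at -19, that of Prss27 at -149 and that of Ppbp at -246. Ppbp, a chemokine known from platelets, read 10.41, 10.68 and 10.91, and 11.58, 11.06 and 11.01 (80.9 and 83.3). Blvrb, a biliverdin reductase, read 10.28, 10.11 and 10.51, and 10.51, 10.70 and 10.64 (76.1 and 75.8), and Prss27, a serine protease, stood at 55.4 and 54.0. Rarb and Cyp26a1 stood at 25.9 and 26.4, and at 22.5 and 21.8. Of the other genes with the element, Gm1043 and Syndig1 were between the lines, Cfap45 and Tnfsf13b were above the line on 2 arrays each, and Prokr2 and Hbb-y were at background. A match of letters is a description and no evidence of binding.

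Among clusters in place on their chromosome, the brightest were those of Eef1a1 (100.0 and 100.0), an elongation factor, Actb (99.9 and 99.9), beta-actin, Txn1 (99.9 and 99.9), thioredoxin, Rplp0 (99.8 and 99.8), a ribosomal protein, H4c4, a histone, Eef2, Ccn2, a secreted matricellular protein, Atp5d, an ATP synthase subunit, Rn7sk, a small nuclear RNA, and Pabpc1, a poly(A)-binding protein. Cldn4, Fn1 and Krt8 were among the 40 brightest genes of that kind. In the plain ranking of single clusters, the leading 20 also held out-of-place clusters assigned to Rn7sk (a further one), Baiap2l1, Kcnma1, Ube2d3, Rps6, Rplp0, Hspa8 and Rpl10.

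The vehicle cultures of an experiment were not alike for every gene. The median SD over the 3 vehicle arrays was 0.119 log2 units in the first experiment and 0.076 in the second, and the lowest Pearson correlation between 2 such arrays was 0.994 and 0.997. Of the 296 list genes above the line, 16 (5.41%) had an SD in the top 5 percent of both experiments, against 1.79% of all clusters above the line. These genes were singled out after the values were seen. The lists were chosen with earlier results of these data known. Neither this share nor the counts below can therefore be weighed against the shares of all clusters. Dhrs3 varied most, with 10.68, 8.97 and 10.91 in the first experiment and 8.86, 10.66 and 10.83 in the second (SD 1.06 and 1.09, n = 3 each). In each experiment 1 culture lay well below the other 2, replicate 2 of the first and replicate 1 of the second. Lowest in the same 2 arrays were 11 of the 16 genes, against 20.1% of all clusters above the line and 34.2% of the 263 clusters with an equally wide SD. They included the receptors Csf1r and Fgfr2 (9.59, 8.76 and 9.61, and 9.59, 10.34 and 10.46), Upk1a, Nr3c2 (8.06, 7.42 and 8.15, and 7.27, 8.00 and 8.05), Tgm2, Wnk4, Stra6 and the epithelial factor Ehf. Highest in these 2 arrays were 4 of the 16, against 18.7% of all and 55.9% of the wide ones, namely Cldn1 (12.34, 13.03 and 12.38, and 13.24, 12.54 and 12.21), Ptgs2, the inducible prostaglandin synthase, Etv4 and Fabp5. The 263 wide clusters include many of the same gene, such as those of Gm7982, all highest in these 2 arrays. Their shares thus count clusters and not genes. Outside the lists, and picked after the values were seen, Lbp (10.94, 9.53 and 11.62, and 9.56, 10.98 and 11.64) and Txnip (12.07, 10.63 and 11.62, and 11.17, 12.19 and 12.31) had the first pattern and Ccl2, a chemokine (9.72, 11.48 and 10.11, and 11.64, 10.59 and 10.49), the second. The cause of this pattern was not tested.

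Between experiments the order of genes was close to the same, with a Spearman rho of 0.993 over annotated clusters. Of 14609 clusters with 1 symbol that were above the line in an experiment, 89.8% lay within 5 percentile points of their place in the other. The largest rises from the AGN193109 to the DEAB experiment, among clusters whose arrays did not overlap, were those of Pof1b, an actin-binding protein of epithelial junctions (15.0 to 42.6), Cytip (21.8 to 41.2), Piezo2, a mechanosensitive channel (63.4 to 81.9), Calml4 (28.5 to 46.6), Taf1d (63.5 to 80.3, with 4 clusters of the same value), 1500015L24Rik (30.3 to 46.8) and Ehd2, a membrane-shaping protein (60.1 to 76.6). The largest falls were those of Rsad2 (by 20.6 points, to 59.4), Irf7 (75.2 to 58.3), Gm10829 (40.3 to 23.8), Oas3 (65.2 to 49.5), Ifit1 (83.3 to 68.6), Gm572 (43.2 to 28.7), Lgals3bp (87.0 to 72.8), Tmem204 (36.5 to 22.4), Stom (79.5 to 65.8) and Cth (82.0 to 68.3). Rsad2, Irf7, Oas3, Ifit1 and Lgals3bp are known as genes induced by interferon.

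Of the 44 epithelial genes, 19 had a higher percentile in every vehicle array of the DEAB experiment than in any of the AGN193109 experiment and 6 a lower one. Over all clusters above the line these shares were 21.9% and 24.5%. The median shift of the list was 0.8 percentile points, so most of these differences were small. Epcam (86.9 to 93.0) and Ehf (83.9 to 90.1) were among the larger ones. Among the 11 detected retinoid receptors and co-regulators none was higher in this sense and 5 were lower, with a median shift of -1.6. Differences between experiments cannot be told apart from their separate normalization.

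**Figure D5:**
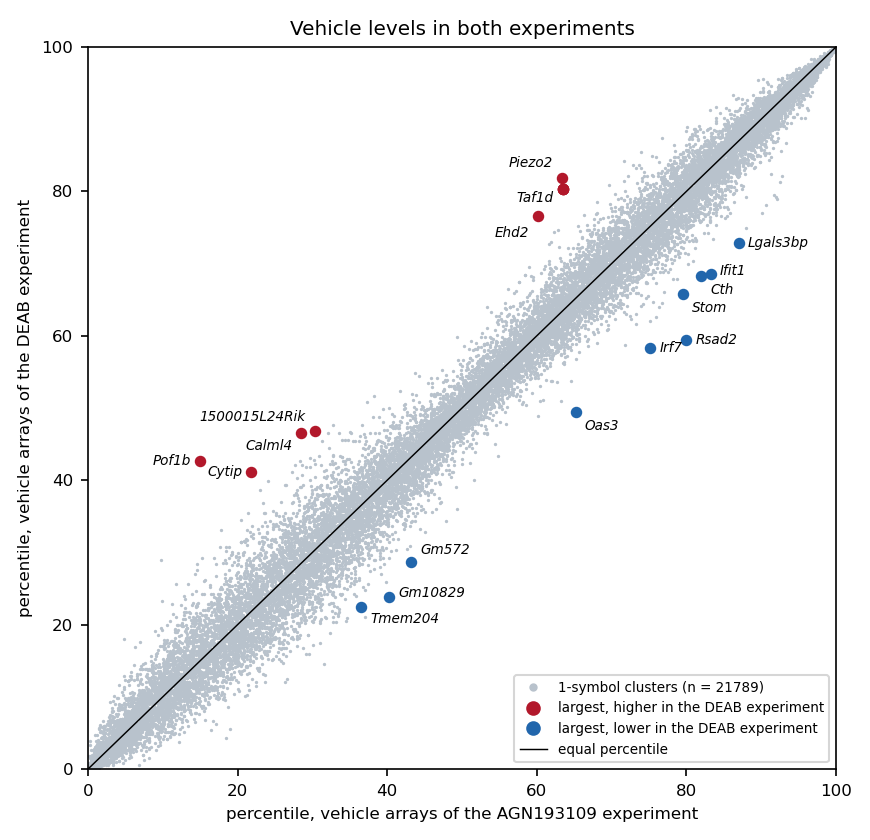
Percentile of every cluster with 1 symbol in the vehicle arrays of the AGN193109 experiment (x axis) and of the DEAB experiment (y axis), each the mean of 3 arrays. The diagonal marks equal percentiles. Named points are the largest rises and falls among clusters whose arrays did not overlap, and nearly all others lie close to the diagonal.

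Whether these baseline levels moved was asked by comparing vehicle with each inhibitor. AGN193109 blocks the receptors whatever the source of tRA, and only DEAB acts on its synthesis. With limma and Benjamini-Hochberg adjustment over 23410 clusters, AGN193109 changed 16 clusters (0.0683%) and none of the 458 list genes, of which 38 reached an unadjusted p of 0.05. When the replicate number, shared by arrays of the same culture experiment, was fitted as a block, 107 clusters (0.457%) and 12 list genes were called. The lists were chosen with earlier results of these data known. They hold genes that the study reports as responding, such as Dhrs3, Sprr1a, Upk3b and Bmp7. The count of list genes called, with either inhibitor, therefore cannot be weighed against the share of all clusters. Lower with AGN193109 were Dhrs3 (log2 change -3.10, SE 0.36 in the blocked fit, blocked adjusted p 0.0110), Sprr1a, Upk3b, Tgm2, Psca, Dsg2, Bmp7, Synpo and Stra6, and higher were Ptgs2, Ptger4 and Pkp1. Dhrs3 read 6.94, 7.07 and 7.24 with AGN193109, below all 3 vehicle arrays. Its adjusted p without the block was 0.118, and it passed that test only when vehicle replicate 2 was left out, as did Edn1 only without AGN193109+tRA replicate 3. Upk3b, a urothelial plaque protein, read 9.67, 9.42 and 10.16 with vehicle and 8.55, 8.39 and 9.21 with AGN193109 (log2 change -1.04, blocked adjusted p 0.00101 by limma). Tgm2, a transglutaminase, read 9.84, 9.23 and 9.97 with vehicle and 8.77, 8.29 and 9.05 with the antagonist. For Stra6 the groups overlapped, with 8.60, 8.53 and 9.61 against 8.10, 8.15 and 9.05, and the fall was seen within each replicate number.

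DEAB changed 8 clusters (0.0342%) and 1 list gene. Sprr1a, named above, read 11.16, 10.84 and 10.68 with vehicle and 8.87, 8.81 and 8.36 with DEAB, a log2 change of -2.21 (SE 0.23, limma adjusted p 0.0184) with no overlap. The call was kept in only 2 of the 9 fits that leave out 1 array, those without DEAB+tRA replicate 1 or 3. In the blocked fit 71 clusters (0.303%) and 4 list genes were called, Sprr1a, Upk3b, Dsg2 and Tgm2, all lower and all called with AGN193109 too. Dsg2, a desmosomal cadherin, read 11.97, 12.01 and 11.94 with vehicle and 11.46, 11.61 and 11.52 with DEAB. Dhrs3 read 7.66, 7.89 and 7.83 with DEAB, below all 3 vehicle arrays. Its fall of 2.33 on the log2 scale did not pass the test (adjusted p 0.757, blocked 0.0577, limma). By RT-qPCR of the same RNA the study reports Dhrs3 as significantly lower with DEAB. The difference between both inhibitors' effects, an interaction contrast in limma fitted without the replicate block, was called for none of the 23410 clusters. None of the 458 list genes was thus called, and 6 of them reached an unadjusted p of 0.05. Neither for these 6 nor for the 38 with AGN193109 was the share over all clusters counted. The interaction was not fitted with the block, so its lack of calls does not show that the inhibitors act alike. The 4 line markers Krt8, Krt18, Cdh1 and Aqp2 were called in neither comparison, with or without the block.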

How the data were processed

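The authors hybridized RNA of mIMCD-3 cells to 18 Affymetrix Mouse Gene 1.0 ST arrays and normalized them with RMA in Affymetrix Expression Console, whose version was not found in the sources at hand, and deposited log2 values. RMA estimates background from the probes of each array, which compresses dim signals. Of 35556 clusters, 23410 have a gene symbol (21789 have 1, 1621 several) and 12146 have none. Of those with 1 symbol, 21698 were found in RefSeq by gene ID. Arrays were grouped by title, and each vehicle array was placed in an experiment from how its short name is written.

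No further normalization was applied. A gene with several clusters was read from the brightest. The 24 gene lists name 498 genes, of which 458 have a cluster with 1 symbol. The members and lists were chosen with earlier results of these data known. The rule for naming genes took the 4 line markers, each list's 4 defining members and up to 6 further bright ones, all retinoid genes, the 20 brightest clusters, the 10 largest rises and falls between experiments, and every called list gene. Not every gene that it took is named. Some list members outside the rule, such as Scnn1b, Kcnj1 and Tfap2b, are named too. Genes outside the lists that were picked after the values were seen are marked so. Groups within an experiment were compared by limma (version 3.58.1, R 4.3.3) on group means fitted over its 9 arrays, at an adjusted p under 0.05. Residuals of arrays with the same replicate number correlated at 0.198 to 0.645 (AGN193109) and 0.179 to 0.614 (DEAB) in all 9 pairs of each experiment, and numbers denote independent experiments in the labels, so the blocked fit is given beside the main one. The code was tested on simulated data. Promoter CpG content by level was not used, since 78.1% of genes had a promoter in the table, under the 80% set for it. Python 3.11.15 and matplotlib 3.10.9 made the plots. The number of arrays, 3 per group, limits the precision.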

Additional observations from a re-analysis of the deposited data

Results flagged for a closer look

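Of the 12146 clusters that carry no gene symbol in the array annotation and belong to no gene list, 3548 (29.2%) were above both background lines on all 6 vehicle arrays, and 4830 were above the line. They were looked at again because they hold signal outside the annotated clusters, and they are unnamed here.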

How the results depend on the processing

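The counts of detected genes kept within 1.5 times their value under the other background lines, which gave 12031 to 17027 annotated clusters and 223 to 371 list genes above the line, against 14660 and 296. Leaving out 1 vehicle array gave 14669 to 14855 and 297 to 300. A gene had to be above the line on every array kept, so these counts could only stay or rise. Without clusters apart from their chromosome, an alternative chosen after the values were seen, 295 list genes were above the line and 2101 clusters were bright. A threshold of the top 5 percent left 1065 bright clusters in place of 2163. Ranked among all 35556 clusters, Cdh1 stood at a mean percentile of 96.0 in place of 95.6 and Aqp2 at 56.2 in place of 48.7, and Aqp2 ranged from 48.1 to 49.2 with 1 array left out.

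Calls between inhibitor and vehicle were less stable. With the replicate block, 12 list genes in place of 0 were called for AGN193109 and 4 in place of 1 for DEAB, and the clusters called rose from 16 to 107 and from 8 to 71. For DEAB, 0 list genes were called over all 35556 clusters, and 2, Dsg2 and Sprr1a, with dim clusters left out, with quantile normalization again and with the trend and robust options. Leaving out 1 array gave 0 to 1 list genes in both comparisons; for AGN193109 these were Dhrs3 without vehicle replicate 2 and Edn1 without AGN193109+tRA replicate 3. Fitting just the 6 arrays of vehicle and inhibitor called 2 clusters for AGN193109 and 5 for DEAB, and adding the unnamed clusters gave 8 and 6. With dim clusters left out, 18 and 13 were called. Leaving out 1 array gave 7 to 17 clusters for AGN193109, with 7 without vehicle replicate 1 or AGN193109 replicate 1, 8 without AGN193109 replicate 2 and 10 without vehicle or AGN193109 replicate 3, and 5 to 11 for DEAB, with 5 without DEAB replicate 2. The cause of these changes was not tested. Signal over background limits what can be said of genes between the lines, a range that also held 6 of 35 genes of other organs.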

Other observations

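Gene families taken by symbol, chosen after the values were seen, filled the ranking unevenly. Of 217 clusters of cytosolic ribosomal proteins 79.3% were bright, and of 28 of ATP synthase subunits 60.7%, and 18 of 45 of proteasome subunits were, against 9.24% of all annotated clusters. Zinc finger genes of the Zfp series were widely detected but seldom bright, with 64.8% of 364 above both lines and 2.47% bright. Of 79 potassium channel clusters, counted by symbols of the form Kcnk1 and so without Kcnma1, 1 was bright, Kcnk1 (94.5 and 95.6). Of 87 cytochrome P450 clusters, the enzymes of drug and steroid oxidation, 66 were at background. Of 42 defensin clusters none was above both lines.

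Among 32 integrin clusters, receptors for the matrix, Itga3 (96.8 and 96.5), Itgav (95.9 and 96.4), Itgb1 (mean 95.4) and Itgb5 (94.6 and 94.1) were bright in both experiments. Of 52 keratin clusters, 4 were bright, Krt8, Krt18, Krt7 and Krt19, and Krt80 stood at 81.0 and 88.7. Of 11 aquaporin clusters, Aqp2 (48.9 and 48.5), Aqp5 (48.7 and 46.8) and Aqp11 (47.4 and 45.2) were above both lines and 5 were at background.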
